A study of Homo sapiens with 18 samples.

Results

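Lapatinib-resistant SKBR3 cells exposed to 1 µM lapatinib were compared with parental SKBR3 cells that had received no drug. The samples were taken by their labels, 3 arrays for each group, so that 6 of the 18 arrays of the series make up the comparison. SKBR3 is an established human breast cancer line with amplified ERBB2, and lapatinib is a kinase inhibitor that blocks the receptors ERBB2 and EGFR. The series holds the parental and the resistant line, each under basal conditions, with 0.1 µM and with 1 µM lapatinib, with 3 arrays in each of 6 groups. Total RNA from each sample was labelled with biotin and hybridised to an Illumina whole-genome expression array. The labels used here give neither the length of exposure, nor how the resistant line was selected and whether it is 1 clone, nor whether basal resistant cells came from medium without drug. They also do not say whether the 3 replicates came from separate cultures, so the p-values cover no more than the scatter among these arrays, part or all of which may be technical.

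In ERBB2-amplified cells the receptor, often paired with ERBB3, drives the MAPK and the PI3K-AKT pathways, which sustain cyclin D1, MYC and the transcription of genes for DNA replication and mitosis. When the kinase is blocked, transcripts of the MAPK feedback inhibitors fall, and FOXO transcription factors, which AKT holds in the cytoplasm, enter the nucleus and raise genes of growth arrest and catabolism. Cells selected for growth under such an inhibitor can differ from their parents before any drug is added, so the difference between resistant cells under drug and untreated parental cells has a part set by the line and a part set by the drug.

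The arrays of the comparison differed in brightness along with the groups. The mean signal before normalization was 646 ± 25.9 (SD, n = 3) in parental basal cells and 438 ± 8.75 (SD, n = 3) in resistant cells under 1 µM, with no overlap. Replicate arrays of a group correlated at 0.986 to 0.996 over the 12547 genes tested. Epithelial and ERBB2-amplicon markers were present in both groups. KRT8 had a log2 signal of 11.57 ± 0.09 (SD, n = 3) in parental basal cells and 12.12 ± 0.08 in resistant cells under drug, FOXA1 had 12.32 ± 0.14 and 12.63 ± 0.03, and GRB7, the neighbour of ERBB2, had 11.21 ± 0.15 and 12.58 ± 0.13. EPCAM, an epithelial adhesion protein, had 13.31 ± 0.10 and 12.73 ± 0.06 and was called lower (-0.58, adjusted p 0.000106), and KRT7 (0.087) and KRT19 (0.16) did not pass the test. GATA3 was above background on 0 of 3 parental basal arrays and 1 of 3 arrays of resistant cells under drug, and CDH1 did not pass the filter on low signals. Of markers of other cell types, 3 of 11 fibroblast genes, 6 of 11 leukocyte genes on the array and 7 of 9 endothelial genes passed the filter. PTPRC, CD3D, CLDN5, COL1A2 and PDGFRB did not pass, whereas CSF1R, CDH5 and VWF were above background on all 6 arrays, with parental basal means of 10.60, 7.43 and 6.62. The mean level of the measured fibroblast genes was 6.70 to 6.91 in resistant cells under drug and 6.70 to 6.80 in parental basal cells, that of the leukocyte genes was 7.63 to 7.73 and 7.73 to 7.81, and that of the endothelial genes was 6.92 to 6.99 and 6.79 to 6.86. In bulk RNA, fewer cells of a type and less RNA per cell cannot be told apart.

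Resistant cells under 1 µM lapatinib differed from untreated parental cells in 4434 of 12547 genes tested (35.3%), by limma with a Benjamini-Hochberg adjusted p under 0.05. Of these, 2090 were higher (16.7%) and 2344 were lower (18.7%), and 517 differed at least 2-fold (4.12%), 245 of them higher (1.95%) and 272 lower (2.17%). A further measure set a bound on genes that sat at the untreated parental level: the 95% interval of their difference lay within 0.5 on the log2 scale, that is within 1.41-fold, in either direction. It held for 6838 genes (54.5%), of which 149 were also called, by at most 0.32. Another 1424 genes were neither called nor held within the bound. The arrays of the groups did not overlap for 6036 genes (48.1%). The direction of small differences depended on the scaling. Scaling each array to the median of all probes moved the median difference over genes to -0.23 and gave 775 genes higher and 5335 lower, whereas scaling to the median of the tested genes, chosen after seeing the data, moved it to 0.11 and gave 3496 higher and 2713 lower.

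The path from untreated parental to drug-exposed resistant cells was divided into a line step, resistant basal minus parental basal, and a drug step, resistant 1 µM minus resistant basal. The steps add up to the whole difference and both use the resistant basal arrays, so their errors are not independent. The line step called 1946 genes (15.5%), with 7.25% of all genes higher and 8.26% lower. The drug step called 2896 (23.1%), with 11.0% of all genes higher and 12.1% lower. Among the 2090 higher genes the drug step alone was called and positive in 812 (38.9%), the line step alone in 417 (20%), both in 211 (10.1%) and neither in 617 (29.5%). Among the 2344 lower genes the drug step alone was called in 913 (39%), the line step alone in 559 (23.8%), both in 194 (8.28%) and neither in 625 (26.7%). In the remaining called genes the steps were opposed and of unequal size.

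**Figure D1:**
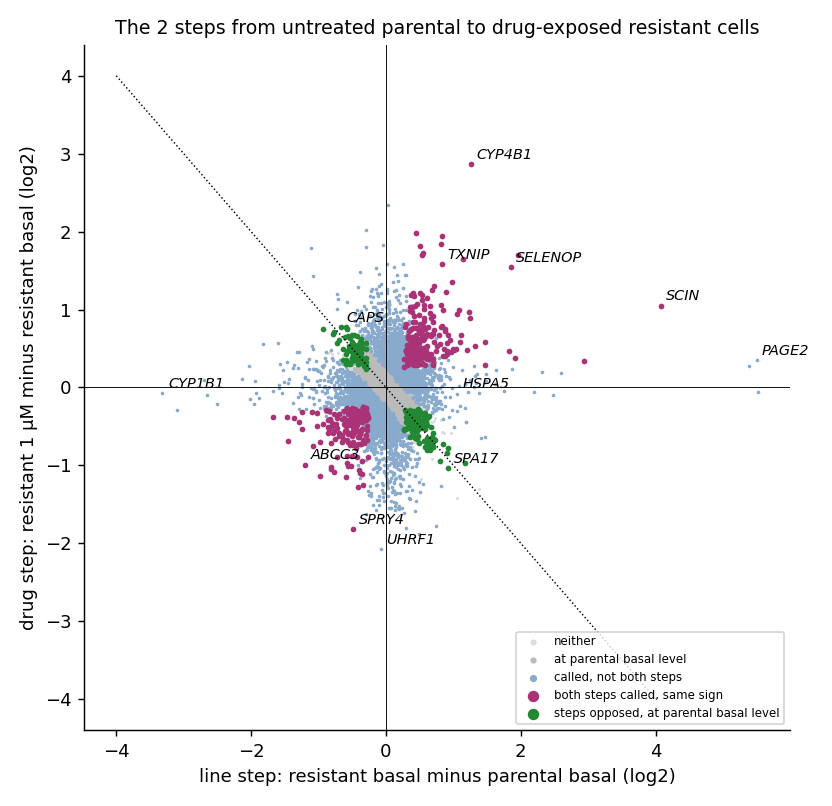
Each point is 1 of 12547 genes, with the line step (resistant basal minus parental basal, log2) on the horizontal axis and the drug step (resistant 1 µM minus resistant basal, log2) on the vertical axis, coloured by class. The PAGE genes lie far to the right near 0 on the vertical axis, CYP4B1 and SCIN lie above and to the right of 0, and the 205 genes with opposed steps that end at the parental basal level lie along the falling diagonal.

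The largest differences lay in the line step. PAGE2, PAGE2B and PAGE5, cancer-testis genes of the X chromosome that are normally silent outside the germ line, were 5.85 ± 0.23 (SE), 5.66 ± 0.21 and 5.46 ± 0.22 higher on the log2 scale in resistant cells under drug (adjusted p 3.19e-17, 1.07e-17 and 5.44e-17). PAGE2 had log2 signals of 7.34, 6.96 and 7.14 in parental basal cells and 12.93, 13.00 and 13.05 in resistant cells under drug, and 12.51, 12.83 and 12.59 in resistant cells without it. The 3 parental arrays lay far below all resistant arrays, with or without drug. The line step was 5.50 for PAGE2, 5.39 for PAGE2B and 5.52 for PAGE5, and the drug step was 0.35, 0.28 and -0.05, none of which passed the test. The 3 genes are paralogues whose signals the probes may not separate, and of the 2 other PAGE5 probes that passed the filter 1 gave 5.32 and 1 gave 0.28.

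The promoters of PAGE2 and PAGE2B are shown because the 2 genes had almost the same values in every group. They are from RefSeq, build GRCh38.p14, 250 bases before to 50 bases after the start, 5′ to 3′, at chrX:55088768-55089067 and chrX:55074780-55075079, both on the plus strand. Capitals mark the longest run of bases that both share, 55 bases. In a global alignment PAGE2 and PAGE2B shared 261 identical bases (87% of 300), PAGE2 and PAGE5 78.7%, and PAGE2B and PAGE5 74.3%.
PAGE2: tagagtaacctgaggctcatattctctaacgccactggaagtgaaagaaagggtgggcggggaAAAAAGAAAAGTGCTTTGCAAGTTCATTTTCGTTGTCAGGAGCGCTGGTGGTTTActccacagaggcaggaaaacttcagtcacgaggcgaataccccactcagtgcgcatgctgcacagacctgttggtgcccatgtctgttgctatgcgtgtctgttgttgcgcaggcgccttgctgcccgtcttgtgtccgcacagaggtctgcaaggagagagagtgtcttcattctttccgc
PAGE2B: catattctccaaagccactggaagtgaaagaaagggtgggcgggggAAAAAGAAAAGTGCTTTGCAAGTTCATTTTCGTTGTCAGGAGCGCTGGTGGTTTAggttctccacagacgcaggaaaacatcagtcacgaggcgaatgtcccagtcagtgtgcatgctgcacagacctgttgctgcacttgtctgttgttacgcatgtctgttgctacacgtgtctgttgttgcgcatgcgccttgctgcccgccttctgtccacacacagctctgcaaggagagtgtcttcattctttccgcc

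Embryonic and fetal globins followed the same pattern. HBE1, the embryonic beta-like globin, had log2 signals of 7.76, 7.97 and 7.90 in parental basal cells, 10.77, 10.83 and 10.84 in resistant basal cells and 11.23, 11.15 and 11.06 in resistant cells under drug. All resistant arrays lay above all parental basal arrays, and the difference was 3.27 ± 0.11 (SE, adjusted p 3.33e-18), of which the line step gave 2.93. HBG1 and HBG2, the near-identical fetal globins, differed by 2.29 and 2.50, whereas HBB, the adult globin, sat at the parental level (-0.13). Of the 14 measured cancer-testis and globin genes 6 were higher (42.9%, against 16.7% of all genes) and 1 was lower (7.14%, against 18.7%). The parental level held for 5 (35.7%, against 54.5%). The exception in direction was MAGEA1, a cancer-testis antigen, which was lower by a difference of -1.61. These globin and MAGE values were singled out after they were seen. The list itself was chosen with earlier results of these data known and counts close paralogues separately, so its shares only describe it. NLGN4X, a neuronal adhesion protein, was 2.78 ± 0.11 (SE) higher with a line step of 2.60, but 2 other NLGN4X probes gave 1.15 and 0.30, and it was above background on 1 of 3 parental basal arrays.

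CYP1B1, a cytochrome P450 that metabolises oestrogens and polycyclic hydrocarbons, had the largest negative difference of the named genes. It had log2 signals of 10.73, 10.37 and 10.47 in parental basal cells, 7.22, 7.24 and 7.15 in resistant basal cells and 7.07, 7.16 and 7.17 in resistant cells under drug. The difference was -3.39 ± 0.15 (SE, adjusted p 4.62e-16), of which the line step gave -3.31 and the drug step -0.07. The resistant arrays with and without drug overlapped. KLHL13, an adaptor of a ubiquitin ligase, differed by -3.38 (line step -3.09), and its other probe by -2.24. PI3, the protease inhibitor elafin, differed by -2.75 (line step -2.66), ZNF704, a zinc finger gene, by -2.72 (line step -2.51), and CFD, complement factor D, by -2.61 (line step -2.70). SEPTIN11, a cytoskeletal GTPase, differed by -2.18 with a line step of -1.96. ITPRIPL2 was not well above background on any array of resistant cells under drug and was at least 4.19-fold lower there (adjusted p 1.31e-12), where the bright group's mean is set against the lowest signal above background. For none of CYP1B1, KLHL13, PI3, ZNF704, CFD, SEPTIN11 and ITPRIPL2 did the drug step pass the test.

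A set of 405 genes was moved the same way by both steps, 211 up and 194 down, so that the resistant cells under drug stood beyond both the untreated resistant cells and the untreated parental cells. Their median size of difference was 1.05, against 0.21 over all genes, a contrast that the choice of genes favours. The count fell to 262 without replicate 3 of the resistant basal cells. It rose to 563, 302 up and 261 down, with only the arrays of the groups compared. Scaling to the median of all probes gave 877, 59 up and 818 down.

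Among the genes raised by both steps, SCGB1D2, a secretoglobin of breast epithelium, had log2 signals of 9.95, 10.09 and 10.06 in parental basal cells, 12.08, 11.83 and 12.06 in resistant basal cells and 13.65, 13.76 and 13.64 in resistant cells under drug. The 3 groups followed each other without overlap, and the whole difference was 3.65 ± 0.18 (SE, adjusted p 6.55e-15). SELENOP, the plasma selenium carrier, had 7.42, 7.41 and 7.38 in parental basal cells, 9.14, 9.43 and 9.20 in resistant basal cells and 10.75, 10.70 and 10.94 in resistant cells under drug. It was 3.39 ± 0.12 (SE, adjusted p 8.12e-18) higher, with a line step of 1.85 and a drug step of 1.54, and its other probe, near background, gave 1.02.

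CYP4B1, a cytochrome P450 that hydroxylates fatty acids, had log2 signals of 6.99, 7.50 and 7.22 in parental basal cells, 8.40, 8.70 and 8.41 in resistant basal cells and 11.32, 11.31 and 11.47 in resistant cells under drug. Its difference was 4.13 ± 0.14 (SE, adjusted p 3.33e-18), its other probe gave 4.12, and the drug step of 2.86 was the larger one. SCIN, the actin-severing protein scinderin, had 7.83, 7.82 and 7.76 in parental basal cells, 11.84, 11.90 and 11.89 in resistant basal cells and 12.77, 13.07 and 12.94 in resistant cells under drug. Here the line step of 4.08 was the larger, and the drug step of 1.05 also passed the test. SLC40A1, the iron exporter ferroportin, was 2.79 higher with steps of 1.14 and 1.64, and MUCL1, a small breast epithelial mucin, was 2.08 higher with steps of 1.08 and 1.00.

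Among the genes lowered by both steps, ABCC3, an efflux pump of organic anions, had log2 signals of 8.90, 9.03 and 8.93 in parental basal cells, 7.88, 7.66 and 7.72 in resistant basal cells and 6.77, 6.86 and 6.64 in resistant cells under drug. The groups did not overlap and the difference was -2.19 ± 0.11 (SE, adjusted p 7.84e-15), with steps of -1.20 and -0.99. ANXA1, an annexin that restrains inflammation, had 11.07, 10.81 and 10.94 in parental basal cells, 9.94, 10.12 and 9.81 in resistant basal cells and 8.81, 8.89 and 8.78 in resistant cells under drug. Its difference was -2.11 ± 0.11 (SE, adjusted p 1.31e-14), with steps of -0.98 and -1.13. S100A9, a calcium-binding alarmin, differed by -1.87 (steps -0.82 and -1.05), CLDN1, a tight junction protein, by -1.86 (steps -0.78 and -1.09), FZD9, a Wnt receptor, by -1.84 (steps -0.82 and -1.03), and CTXN1 by -1.83 (steps -1.08 and -0.75). TMEM243, a transmembrane protein, differed by -2.15 with steps of -1.46 and -0.69.

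The other leading differences came mainly from the drug. MUC1, the transmembrane mucin of luminal cells, had log2 signals of 10.28, 10.14 and 10.25 in parental basal cells, 11.13, 10.83 and 11.18 in resistant basal cells and 12.93, 12.99 and 13.03 in resistant cells under drug, a difference of 2.76 ± 0.14 (SE, adjusted p 7.97e-15). All MUC1 arrays of resistant basal cells lay above those of parental basal cells, so MUC1 was higher at each step, with the larger part in the drug step. ELAPOR1, a regulator of endosomes and lysosomes, was 2.42 higher with a drug step of 1.98, and TMEM176A was 2.37 higher with a drug step of 2.35. UHRF1, which maintains DNA methylation behind the replication fork, had 10.58, 10.42 and 10.52 in parental basal cells, 10.32, 10.36 and 10.59 in resistant basal cells and 8.15, 8.48 and 8.41 in resistant cells under drug. Its basal levels overlapped between the lines, and the difference of -2.16 ± 0.11 (SE, adjusted p 1.33e-14) lay in the drug step of -2.08. SPRY4, a feedback inhibitor of MAPK signalling, differed by -2.30 with a drug step of -1.82, but 2 other probes near background gave 0.09 and -0.50. SRPK2, a kinase of splicing factors, differed by 2.66 at its brightest probe, whereas 2 other probes gave 0.58 and -0.04.

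**Figure D2:**
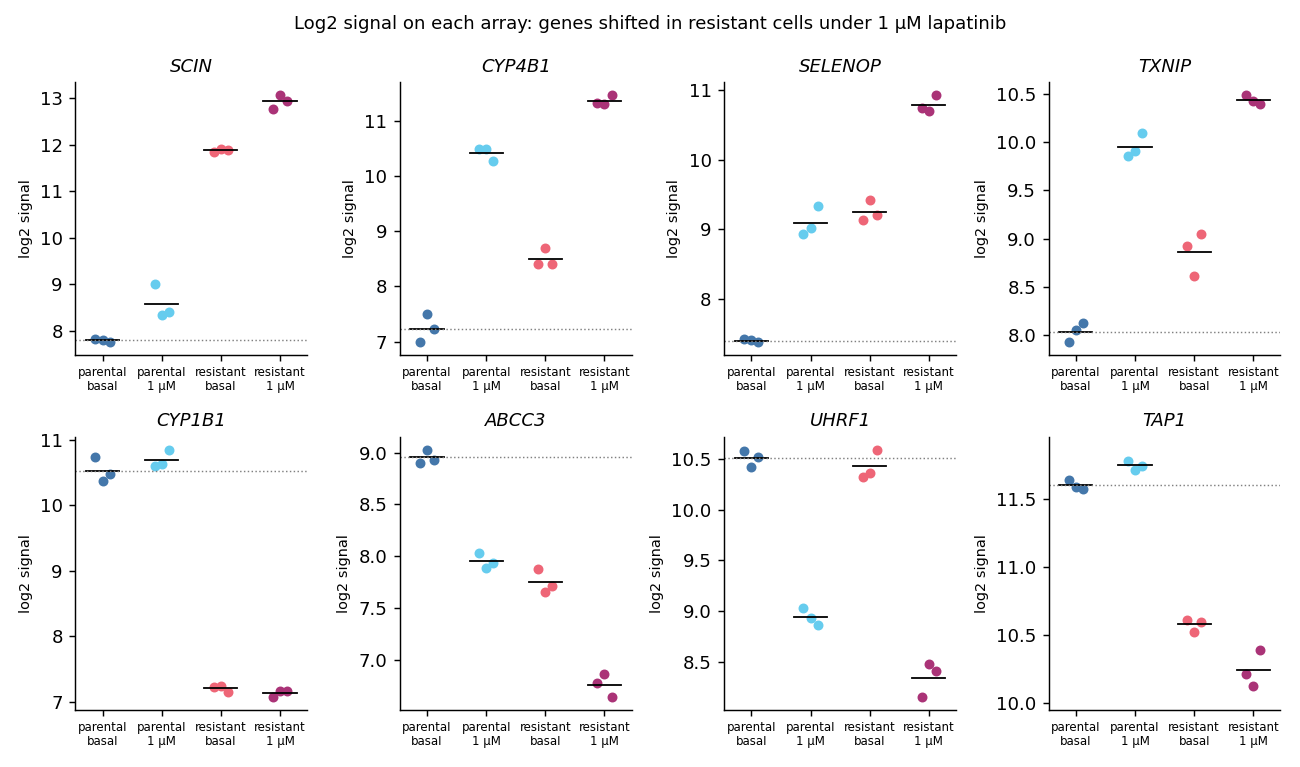
Normalised log2 signal (vertical axis) of 8 genes shifted in resistant cells under 1 µM, in parental basal, parental 1 µM, resistant basal and resistant 1 µM cells. Each point is 1 array, each bar is the mean of 3 and the dotted line is the parental basal mean; SCIN, CYP1B1 and TAP1 separate mostly by line, UHRF1 by drug, and CYP4B1, SELENOP and ABCC3 at each step.

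At the lower dose of 0.1 µM, values are given beside those at 1 µM with no test between the doses. In resistant cells CYP4B1 had a mean log2 signal of 8.50 without drug, 10.58 under 0.1 µM and 11.37 under 1 µM, MUC1 had 11.05, 12.47 and 12.98, and UHRF1 had 10.42, 9.60 and 8.35, so that the lower dose lay between. EGR1, an immediate early transcription factor, had 9.58, 10.26 and 8.03, with the lower dose above both. PAGE2 had 12.64, 12.59 and 12.99, and CYP1B1 had 7.21, 7.74 and 7.14. At 0.1 µM, 3282 genes differed from parental basal cells (26.2%).

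The crossed comparison, parental cells under 1 µM minus resistant cells without drug, uses 6 other arrays and shares none with the first. It carries the drug with the same sign and the line with the opposite sign, so a gene set by the drug keeps its sign and a gene set by the line turns it. It called 4136 genes (33.0%), with 17.3% of all genes higher and 15.7% lower. Of the 2090 genes higher in resistant cells under drug, 689 (33%) were higher and 315 (15.1%) were lower in the crossed comparison, and 1086 were not called. Of the 2344 lower genes, 742 (31.7%) were lower and 475 (20.3%) were higher, and 1127 were not called. Over the 2221 genes called in both, 1431 had the same sign and 790 opposite signs.

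TMEM176A showed the drug pattern, with 2.37 in the first comparison and 1.92 in the crossed one. CYP4B1 gave 4.13 and 1.91, ELAPOR1 2.42 and 1.87, NUPR1, a stress-induced chromatin protein, 1.84 and 1.88, and VSIG2 1.78 and 2.29. RRM2, the small subunit of ribonucleotide reductase, gave -1.92 and -1.50, UHRF1 -2.16 and -1.48, SPRY4 -2.30 and -1.68, and MT2A, a metallothionein, -1.47 and -1.92. The line pattern was that of PAGE2 (5.85 and -5.11), SCIN (5.12 and -3.29), HBE1 (3.27 and -2.24), NLGN4X (2.78 and -2.44), CYP1B1 (-3.39 and 3.48) and CFD (-2.61 and 3.30). SELENOP and ABCC3, whose line and drug steps were of similar size, gave -0.16 and 0.20 in the crossed comparison, neither of which passed the test.

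**Figure D3:**
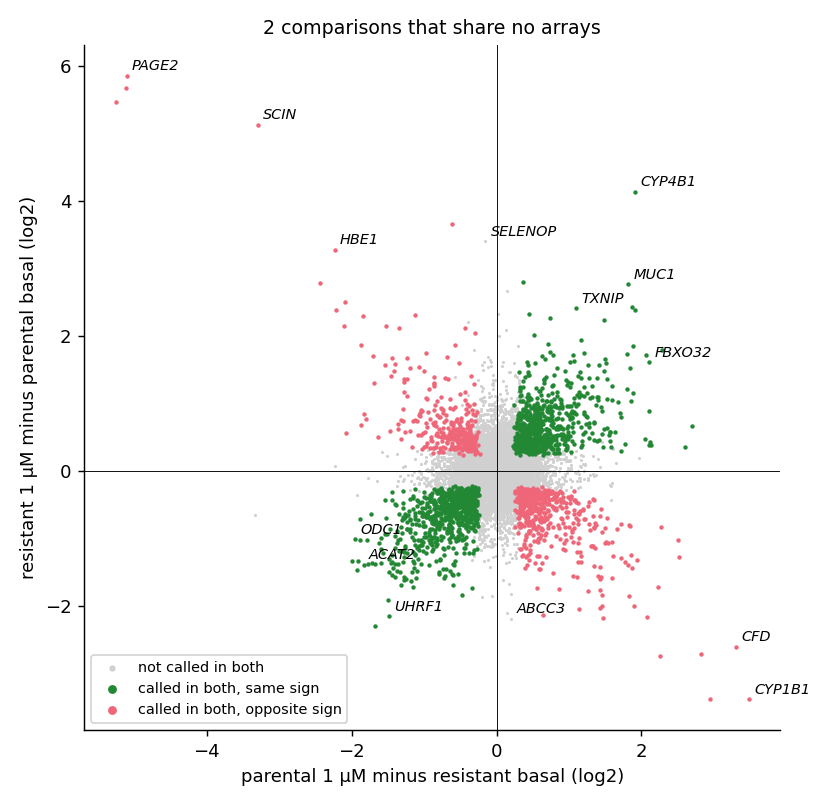
Each point is a gene, with parental 1 µM minus resistant basal (log2) on the horizontal axis and resistant 1 µM minus parental basal (log2) on the vertical axis. The 1431 genes called in both with the same sign lie along the rising diagonal, with CYP4B1 at the top, and the 790 with opposite signs along the falling one, with the PAGE genes and SCIN at the upper left and CYP1B1 at the lower right.

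Among the genes at the untreated parental level, 6053 of 6838 (88.5%) had no called step at all. For 205 genes, 115 raised (1.68% of the 6838) and 90 lowered (1.32%) by the line, the drug step was called with the opposite sign. It brought the level back to within the bound. Their direction depended on the scaling. Scaling to the median of all probes gave 34 raised and 154 lowered by the line, and scaling to the median of the tested genes 97 and 119. The count of 205 became 134 without replicate 2 of the parental basal cells and 332 when the model held only the arrays of the groups compared. Because the resistant basal arrays enter both steps with opposite signs, an error in them gives opposed steps.

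SPA17, a sperm protein of the flagellum, had log2 signals of 8.62, 8.77 and 8.70 in parental basal cells, 9.57, 9.77 and 9.50 in resistant basal cells and 8.58, 8.56 and 8.60 in resistant cells under drug. The line raised it by 0.92, the drug step was -1.03, and resistant cells under drug were within 0.11 of the untreated parental cells (difference -0.11 ± 0.13 (SE), adjusted p 0.566). GLRX, a glutaredoxin that reduces protein disulphides, had 9.38, 9.13 and 9.33 in parental basal cells, 9.95, 10.36 and 9.92 in resistant basal cells and 9.20, 9.16 and 9.02 in resistant cells under drug. For GLRX the arrays of resistant cells under drug overlapped those of parental basal cells, and for SPA17 they lay just below them. PLAC1, a placental gene, had steps of 0.92 and -0.77, CYSRT1 had 1.18 and -0.97, and BLACAT1, a long non-coding RNA, had 0.91 and -0.84. CCNB3, a cyclin of meiosis, was not well above background in parental basal cells or in resistant cells under drug, and was at least 1.52-fold higher in resistant basal cells than in parental basal cells.

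CAPS, the calcium-binding protein calcyphosine, ran the other way, with 9.19, 9.34 and 9.40 in parental basal cells, 8.70, 8.72 and 8.53 in resistant basal cells and 9.38, 9.49 and 9.38 in resistant cells under drug. The line step was -0.66 and the drug step 0.77, and the difference from untreated parental cells was 0.11 ± 0.10 (SE), though the other CAPS probe gave -0.42. ANXA3, an annexin, had steps of -0.77 and 0.71, MIB2, a ubiquitin ligase of Notch ligands, -0.79 and 0.68, RAB15, a GTPase of endosome recycling, -0.70 and 0.61, and OPN3, an opsin expressed outside the eye, -0.61 and 0.65. MTUS1, a microtubule-binding protein, was not well above background in resistant basal cells, at least 1.47-fold below parental basal cells, and was measured on all 3 arrays under drug, -0.19 from the parental level. Under scaling to the median of all probes the differences of CAPS and OPN3 turned to -0.32 and -0.40 and passed the test, as did those of SPA17 (-0.52), GLRX (-0.58), MIB2 (-0.40), MTUS1 (-0.35) and RAB15 (-0.50). Under scaling to the median of the tested genes CYSRT1 (0.40), PLAC1 (0.28) and CCNB3 (0.47) passed.

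MYC, the growth-promoting transcription factor, also belonged to the genes whose steps cancelled. It had log2 signals of 12.47, 12.55 and 12.45 in parental basal cells, 12.68, 13.07 and 12.87 in resistant basal cells and 12.41, 12.53 and 12.38 in resistant cells under drug. The line step was 0.38, the drug step was -0.43 and the difference was -0.05 ± 0.10 (SE, adjusted p 0.763), though -0.57 under scaling to the median of all probes.

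**Figure D4:**
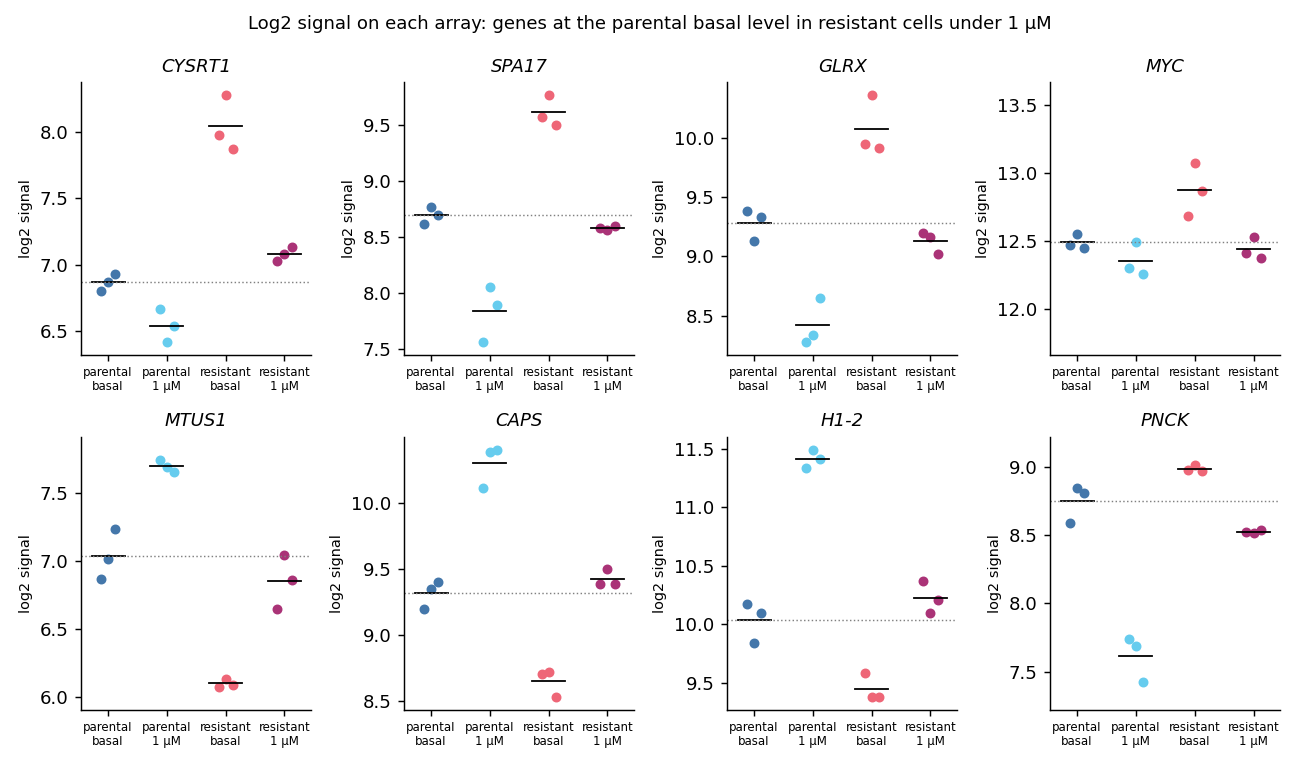
Normalised log2 signal (vertical axis) of genes that sat at or near the untreated parental level in resistant cells under 1 µM, in parental basal, parental 1 µM, resistant basal and resistant 1 µM cells; each point is 1 array and each bar is the mean of 3. The dotted line is the parental basal mean, and in SPA17 and GLRX, highest in resistant basal cells, and in CAPS, lowest there, the resistant 1 µM arrays lie close to it.

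Few genes that the parental line moved strongly under 1 µM were at the untreated level in resistant cells under the same dose. In the parental line 147 genes rose at least 2-fold (1.17% of genes tested) and 128 fell at least 2-fold (1.02%). In the resistant line, on arrays of its own, the drug step was called upward in 145 of the 147, against 11.0% of all genes, and downward in 122 of the 128, against 12.1%, and the other 2 and 6 did not pass the test. The median change of the 147 was 1.23 in the parental line, where the genes were chosen by it, and 0.98 in the resistant line. The median change of the 128 was -1.17 and -1.16. The choice of these genes and the bound both use the parental basal arrays, which favours a low count at the parental level. By the bound on the interval, 54.5% of all genes sat at the untreated parental level in resistant cells under drug. Of these 275 genes 2 did, H1-2 and PNCK. That count ranged from 1 to 4 when each array was left out in turn, with 4 without replicate 2 of the parental basal cells and 1 without replicate 3 of the resistant cells under 1 µM, and was 45 with a bound of 1 on the log2 scale.

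H1-2, a linker histone, had log2 signals of 10.17, 9.84 and 10.10 in parental basal cells, 11.33, 11.49 and 11.41 in parental cells under 1 µM, 9.58, 9.38 and 9.38 in resistant basal cells and 10.37, 10.10 and 10.20 in resistant cells under 1 µM. It rose in both lines, by 1.38 and 0.78, but from a lower start in the resistant line (line step -0.59), and ended 0.19 ± 0.14 (SE, adjusted p 0.343) from the untreated parental level. PNCK, a calmodulin-dependent kinase, had 8.59, 8.85 and 8.81 in parental basal cells, 7.74, 7.69 and 7.42 in parental cells under 1 µM, 8.98, 9.02 and 8.97 in resistant basal cells and 8.52, 8.52 and 8.54 in resistant cells under 1 µM. It fell by 1.13 in the parental line and by 0.46 in the resistant line. The difference between these responses was 0.67 (adjusted p 0.044), a test that 89 genes passed (0.709%), and the parental basal and resistant drug-exposed levels differed by -0.22 ± 0.11 (SE, adjusted p 0.132). Both scalings to a median took PNCK past the threshold, at -0.63 and -0.29. Of the other genes in this class that did not pass the test against the parental basal level, PIP, a prolactin-induced secreted protein, was at 0.42, CFAP144 at 0.32 and SNAR-A1, a small non-coding RNA, at -0.65. CPS1, the carbamoyl phosphate synthetase of the urea cycle, fell in the parental line (-1.24) but was higher in resistant cells under drug than in untreated parental cells (0.56, adjusted p 0.000422). The CPS1 line step of 0.83 passed the test, and its drug step in the resistant line was -0.27, which did not pass. These 4 genes were singled out after their values were seen.

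Proliferation genes were the most uniform group. For the lists below, the shares over all genes tested were 16.7% higher, 18.7% lower and 54.5% at the parental level. All 43 genes of the mitosis list were lower in resistant cells under drug than in untreated parental cells, against 18.7% of all genes, with a median difference of -1.10 against -0.004 over all genes. Their mean level did not overlap between the groups, with a mean log2 signal of 9.05 to 9.11 in resistant cells under drug and 10.14 to 10.17 in parental basal cells. The drug step was called down in all 43 (median -1.25), while the line step was called up in 7 and down in 2 (median 0.14).

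CDC20, the activator of the anaphase-promoting complex, had log2 signals of 12.64, 12.85 and 12.96 in parental basal cells and 11.16, 11.29 and 11.23 in resistant cells under drug, a difference of -1.59 ± 0.10 (SE, adjusted p 2.44e-12). AURKB, the kinase of chromosome alignment, had 9.09, 9.16 and 9.23 against 7.60, 7.42 and 7.83, a difference of -1.54 ± 0.13. MAD2L1, of the spindle checkpoint, had 11.19, 11.12 and 11.07 against 9.40, 9.64 and 9.75, a difference of -1.53 ± 0.12, and PTTG1, the separase inhibitor securin, had 12.24, 12.13 and 12.21 against 10.70, 10.82 and 10.54, a difference of -1.51 ± 0.14. No array of resistant cells under drug reached a parental basal array for CDC20, AURKB, MAD2L1 or PTTG1. NUSAP1, a spindle protein, differed by -1.44. MKI67, the proliferation marker Ki-67, was close to background and differed by -0.50 (adjusted p 0.00397), with no call under scaling to the median of the tested genes (-0.31) or without parental basal replicate 2 (-0.35).

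The promoters of CDC20, AURKB, MAD2L1 and PTTG1 are shown because these genes moved together. Capitals mark 2 motifs searched on both strands, the CHR element TTTGAA and the CCAAT box CCAAT, and the overlapping pair in PTTG1 reads CCAATTGG. TTTGAA was found in CDC20 and MAD2L1 but not in AURKB or PTTG1, and in MAD2L1 it lies after the start, at bases 275 to 280. Each promoter shown holds CCAAT. They are from RefSeq, build GRCh38.p14, with the same window, at chr1:43358731-43359030 (plus strand), chr17:8210176-8210475 (minus strand), chr4:120066799-120067098 (minus strand) and chr5:160421605-160421904 (plus strand). Among the promoters of the mitosis list 29 of 43 (67.4%) hold TTTGAA and 34 of 43 (79.1%) hold CCAAT, against 15.2% and 34.6% of 35116 promoters of the same length.
CDC20: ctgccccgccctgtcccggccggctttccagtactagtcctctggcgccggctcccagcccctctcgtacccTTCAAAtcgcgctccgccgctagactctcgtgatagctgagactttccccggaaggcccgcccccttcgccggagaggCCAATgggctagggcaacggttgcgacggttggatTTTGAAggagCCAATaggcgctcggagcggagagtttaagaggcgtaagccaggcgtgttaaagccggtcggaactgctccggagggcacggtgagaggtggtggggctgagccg
AURKB: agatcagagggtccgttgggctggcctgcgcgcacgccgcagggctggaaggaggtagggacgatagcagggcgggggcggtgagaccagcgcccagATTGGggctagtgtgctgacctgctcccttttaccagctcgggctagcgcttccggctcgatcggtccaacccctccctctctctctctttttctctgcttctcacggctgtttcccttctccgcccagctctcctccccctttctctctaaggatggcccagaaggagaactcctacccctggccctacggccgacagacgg
MAD2L1: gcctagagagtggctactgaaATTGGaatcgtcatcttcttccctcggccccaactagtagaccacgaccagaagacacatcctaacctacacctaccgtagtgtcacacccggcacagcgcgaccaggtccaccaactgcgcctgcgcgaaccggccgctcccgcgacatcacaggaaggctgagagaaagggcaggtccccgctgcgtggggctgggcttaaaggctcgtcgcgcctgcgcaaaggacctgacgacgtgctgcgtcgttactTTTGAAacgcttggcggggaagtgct
PTTG1: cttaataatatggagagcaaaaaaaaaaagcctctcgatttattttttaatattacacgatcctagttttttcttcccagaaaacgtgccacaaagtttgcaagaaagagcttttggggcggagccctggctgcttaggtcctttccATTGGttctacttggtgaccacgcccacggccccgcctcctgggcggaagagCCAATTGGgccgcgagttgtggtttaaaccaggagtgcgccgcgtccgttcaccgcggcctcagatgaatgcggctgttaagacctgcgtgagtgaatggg

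The list of G1/S and DNA replication had 31 of 37 members lower (median -0.72), and 5 were at the parental level. RRM2 had a log2 signal of 9.01 ± 0.03 (SD, n = 3) in parental basal cells and 7.09 ± 0.10 in resistant cells under drug, without overlap, a difference of -1.92 ± 0.11 (SE, adjusted p 1.11e-13). MCM10, which assembles the replication fork, differed by -1.62 and TYMS, the thymidylate synthase, by -1.59. Of 28 nucleolar and MYC target genes 22 were lower and 1 was higher (median -0.58), among them ODC1, the first enzyme of polyamine synthesis (-1.02), BOP1, a ribosome assembly factor (-0.99), GAR1, of the pseudouridine complex (-0.90), and NIP7, of ribosome assembly (-0.87). The line step was negative and called for BOP1 (-0.47), GAR1 (-0.56) and NIP7 (-0.44), whereas for ODC1 it was 0.44. CCND1, cyclin D1, had 12.95, 12.93 and 12.86 in parental basal cells, 13.15, 13.31 and 13.21 in resistant basal cells and 12.21, 12.32 and 12.22 in resistant cells under drug. The line step of 0.31 was outweighed by the drug step of -0.97, and the difference was -0.66 ± 0.09 (SE, adjusted p 1.83e-06).

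Targets of ERBB-MAPK signalling were lower in 17 of 23 and at the parental level in the other 6 (median -0.53). JUN, a component of the AP-1 factor, had log2 signals of 9.69, 9.75 and 9.72 in parental basal cells and 8.03, 8.07 and 8.19 in resistant cells under drug, a difference of -1.62 ± 0.16 (SE, adjusted p 4.12e-09) made of steps of -0.73 and -0.89. EGR1 differed by -1.50, all of it in the drug step of -1.54, and ERRFI1, a feedback inhibitor of EGFR, by -1.49. DUSP6, ETV5 and FOSL1 did not pass the filter.

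Of the receptors the drug acts on, ERBB2 did not pass the test and EGFR passed it by a small difference, and their partner ERBB3 was higher at its brightest probe. ERBB2 had log2 signals of 15.27, 15.05 and 14.87 in parental basal cells and 15.29, 15.27 and 15.44 in resistant cells under drug, near the top of the scale. The groups overlapped by the brightest parental array, the difference of 0.27 ± 0.11 (SE) had an adjusted p of 0.0591, and ERBB2 passed the test when only these 6 arrays were modelled (adjusted p 0.0152) and without replicate 1 of the parental basal cells (0.38, adjusted p 0.0168). A probe this bright can understate a difference, so lying within the bound does not show an unchanged level, and its 2 dim probes gave 0.11 and 0.23. EGFR differed by 0.29 (adjusted p 0.0299) and its dimmer probe by 0.94, but it was at -0.14 under scaling to the median of all probes. The EGFR call also ended under scaling to the median of the tested genes (0.19, adjusted p 0.121), without parental basal replicate 2 or 3 (0.27 and 0.25) and without resistant 1 µM replicate 1 or 3 (0.30 and 0.25). ERBB3, the kinase-impaired partner of ERBB2, had 10.38, 10.29 and 10.29 against 11.09, 11.30 and 11.05, a difference of 0.82 ± 0.10 (SE, adjusted p 7.62e-08) in the drug step of 0.76. Its 2 other probes gave -0.22 and -0.02, and the mean of its probes did not pass the test (0.19, adjusted p 0.101). Among the ligands EGF was 1.08 higher, BTC, betacellulin, 0.68 higher, and HBEGF differed by -0.58. In all, 4 of 10 measured ERBB receptors and ligands were higher (40%, against 16.7% of all genes) and 1 was lower (10%, against 18.7%). At the parental level were 6 (60%, against 54.5%), ERBB4, TGFA, EREG and NRG2 with ERBB2 and EGFR. EGFR counts both as higher and as at the parental level.

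Other genes often examined in lapatinib resistance gave no call. The receptor MET differed by -0.05, IRS2, an adaptor of insulin and IGF receptors, by -0.03, IGF1R by 0.30 and ESR1 by -0.05, and IRS2, IGF1R and ESR1 were at or near background. MET passed at -0.38 under scaling to the median of all probes, and IGF1R at 0.63 under scaling to the median of the tested genes. The drug exporter ABCB1 was near background in both groups (-0.14), and AXL and ABCG2 did not pass the filter. PIK3CA is not named on this array in the annotation used. Transporters in all were higher in 3 of 9 (33.3%, against 16.7% of all genes) and lower in 2 (22.2%, against 18.7%). ABCC5, a nucleotide efflux pump, was 1.23 higher and ABCC11, the pump of apocrine secretion, 1.04 higher at its brightest probe (others 0.03 and 0.33), while ABCC4, a cyclic nucleotide exporter, was lower by both of its probes (-1.68 and -2.03), as was ABCC3. In the BCL2 family 4 of 13 were higher (30.8%, against 16.7% of all genes) and 1 was lower (7.69%, against 18.7%). BIK, a death-promoting member, was 1.06 higher, BCL2L2, a survival member, 0.62 higher and MCL1, another, 0.53 higher. BID, which links death receptors to mitochondria, differed by -0.58. The calls of BCL2L2 (0.18) and MCL1 (0.068) ended under scaling to the median of all probes, where 1 member of the family was higher and 3 were lower, and the MCL1 call also ended when its probes were averaged (0.20, adjusted p 0.127), its other probe being at -0.14.

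FOXO targets were higher in 14 of 29 (48.3%, against 16.7% of all genes) and lower in 4 (13.8%, against 18.7%), with a median of 0.30. TXNIP, which binds thioredoxin and restrains glucose uptake, had log2 signals of 7.92, 8.05 and 8.13 in parental basal cells, 8.92, 8.61 and 9.05 in resistant basal cells and 10.49, 10.43 and 10.40 in resistant cells under drug. It was 2.41 ± 0.12 (SE, adjusted p 7.88e-15) higher, with steps of 0.83 and 1.58. FBXO32, the ubiquitin ligase atrogin-1, was 1.60 higher, BCL6, a transcriptional repressor, 1.48 higher and YPEL3, a growth suppressor, 1.47 higher, with drug steps of 1.44, 1.18 and 1.36 and line steps that did not pass the test. FOXO3 itself, at 0.31 (adjusted p 0.0149), was at -0.18 without a call under scaling to the median of all probes. Its call also ended under scaling to the median of the tested genes (0.16), with the mean of its probes (0.21) and without resistant 1 µM replicate 2 (0.28).

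Of 27 lysosome and autophagy genes 22 were higher and 1 was lower (median 0.57), with the line step called up in 9 and the drug step in 18. CTSF, a cathepsin, was 1.22 higher (steps 0.50 and 0.72), GAA, the acid alpha-glucosidase, 1.26 higher (line step 0.91), WIPI1, an autophagosome protein, 1.11 higher and TPP1, a lysosomal peptidase, 0.99 higher. TPP1 had a log2 signal of 8.97 ± 0.03 (SD, n = 3) in parental basal cells and 9.95 ± 0.02 in resistant cells under drug, without overlap. Luminal epithelial markers were higher in 10 of 19 and lower in 1 (median 0.42), among them MUC1, XBP1, a transcription factor of secretory cells (0.95), SPDEF, an ETS factor of luminal cells (0.87), and PRLR, the prolactin receptor (0.93), which lay in the line step (0.80). Under scaling to the median of all probes 8 lysosome genes, 4 luminal markers and 10 FOXO targets remained called higher, and the medians were 0.13, 0.07 and 0.17.

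**Figure D5:**
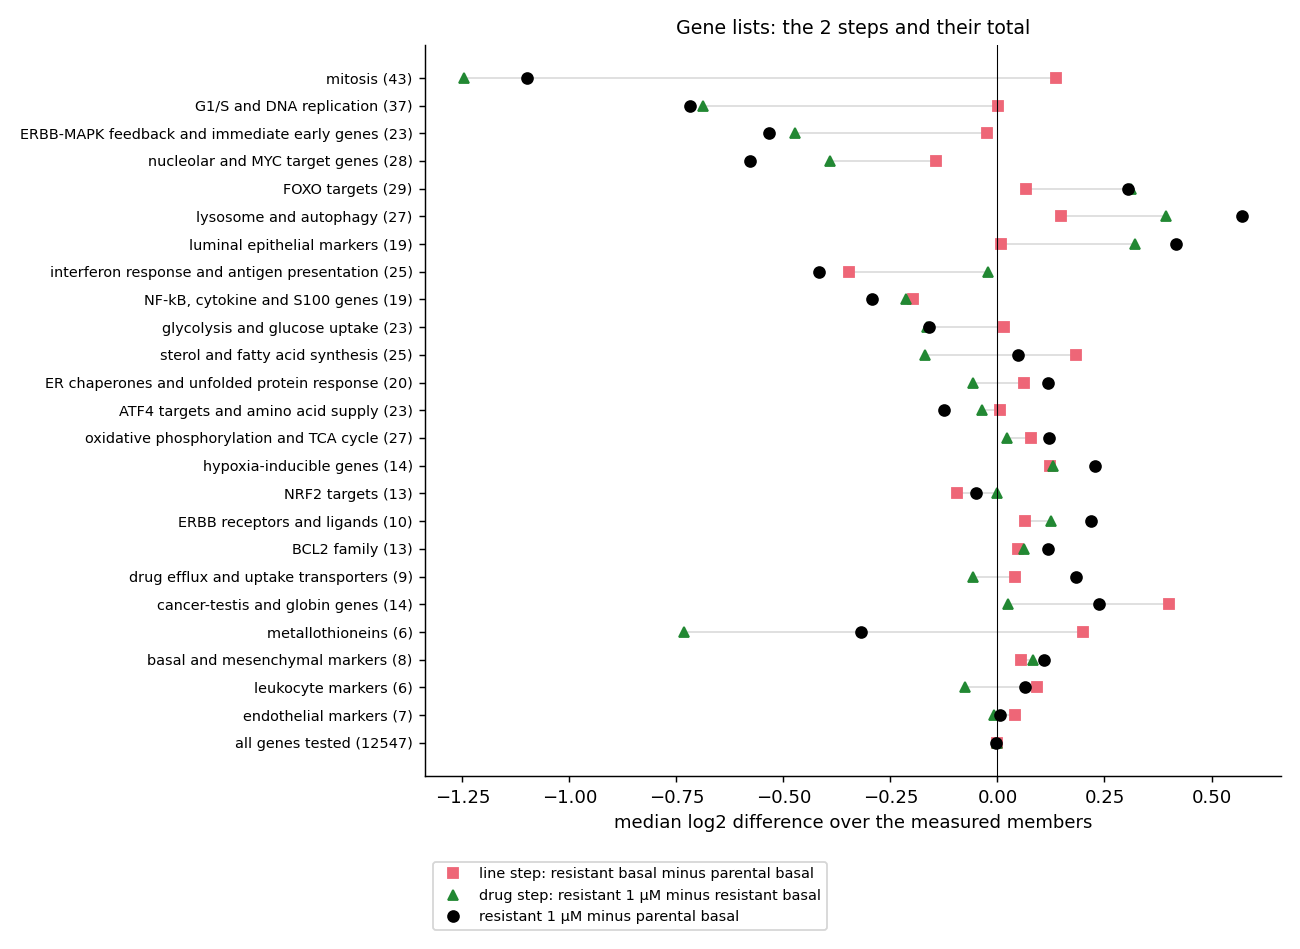
Median log2 difference over the measured members of each gene list (horizontal axis), with the line step as squares, the drug step as triangles and their total, resistant 1 µM minus parental basal, as circles; the number of measured members is in parentheses. The circle and the triangle of the mitosis list lie at -1.10 and -1.25, while the square of the interferon list lies at -0.35 with its triangle near 0.

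Of 25 genes of the interferon response and antigen presentation 12 were lower and 3 were higher (median -0.42), and here the line step carried the difference, with 11 called down and a median of -0.35, against 3 called down and a median of -0.02 for the drug step. TAP1, the peptide transporter of antigen presentation, had log2 signals of 11.64, 11.59 and 11.57 in parental basal cells, 10.62, 10.52 and 10.60 in resistant basal cells and 10.22, 10.13 and 10.39 in resistant cells under drug. It differed by -1.35 ± 0.09 (SE, adjusted p 5.49e-12), with a line step of -1.02. GBP1, an interferon-induced GTPase, differed by -1.11 (line step -1.09), BST2, the antiviral tetherin, by -0.96 (line step -0.74), and ISG15, a ubiquitin-like modifier, by -1.35 with steps of -0.65 and -0.71. In the crossed comparison 15 of the 25 were higher in parental cells under drug than in resistant basal cells, against 17.3% of all genes. Of the genes of NF-kB signalling, cytokines and S100 proteins 10 of 19 were lower and 1 was higher (median -0.29). S100A8 differed by -1.57 and S100A7 by -1.53, both calcium-binding proteins of inflamed epithelium, and CXCL8, the chemokine interleukin-8, was not well above background under drug and at least 1.74-fold lower.

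Metabolic lists were less uniform. Of 23 glycolysis genes 3 were higher, 7 were lower and 12 (52.2%, against 54.5% of all genes) were at the parental level (median -0.16), and under scaling to the median of all probes 2 were higher and 16 lower (median -0.64). LDHA, lactate dehydrogenase A, had log2 signals of 14.25, 13.97 and 14.00 in parental basal cells and 12.81, 12.94 and 12.94 in resistant cells under drug, a difference of -1.18 ± 0.10 (SE, adjusted p 5.1e-10), and PFKP, a phosphofructokinase, differed by -1.29. SLC2A10, a glucose transporter, and HK2, hexokinase 2, were 1.61 and 1.34 higher. In each of LDHA, PFKP, SLC2A10 and HK2 both steps passed the test in the same direction.

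Of 25 genes of sterol and fatty acid synthesis 5 were higher, 9 lower and 10 at the parental level. Their median of 0.05 turned negative under both median scalings (-0.43 and -0.09). The line step was called up in 6, and the drug step up in 2 and down in 11. HMGCS1, which makes the precursor of mevalonate, had steps of 0.70 and -0.58, DHCR7, the last enzyme of cholesterol synthesis, 0.54 and -0.43, and IDI1, of isoprenoid synthesis, 0.43 and -0.53, and all 3 sat at the untreated parental level. They were singled out after their values were seen. ACAT2, which starts the pathway, differed by -1.40 in the drug step of -1.35, although a dim second probe gave -0.10, and SQLE, the squalene epoxidase, by -0.61. THRSP, a regulator of lipogenesis, was 1.73 higher.

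Of 27 genes of oxidative phosphorylation and the TCA cycle 17 (63%) were at the parental level, against 54.5% of all genes, with 7 higher and 3 lower (median 0.12). That balance turned under both median scalings, to 1 higher and 15 lower for all probes (median -0.33) and 1 higher and 6 lower for the tested genes (median 0.002). SDHA, a subunit of succinate dehydrogenase, stood out at 1.21 ± 0.11 (SE, adjusted p 1.04e-09), with 11.83, 11.79 and 11.78 in parental basal cells, 12.53, 12.59 and 12.52 in resistant basal cells and 12.87, 13.18 and 12.99 in resistant cells under drug, and its other probe gave 1.45. ER chaperones and genes of the unfolded protein response were at the parental level in 12 of 20 (60%, against 54.5% of all genes). They were higher in 4 (20%, against 16.7%) and lower in 2 (10%, against 18.7%), with a median of 0.12. Under scaling to the median of all probes 2 were higher and 9 lower (median -0.31). HSPA5, the chaperone BiP, had 8.77, 8.81 and 8.85 in parental basal cells, 9.83, 9.89 and 9.88 in resistant basal cells and 9.86, 9.72 and 9.77 in resistant cells under drug. The whole difference of 0.97 ± 0.10 (SE, adjusted p 9.55e-09) lay in the line step of 1.06, and the drug step was -0.08.

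ATF4 targets were at the parental level in 13 of 23 (56.5%, close to the 54.5% of all genes), higher in 3 and lower in 6, and under scaling to the median of all probes 1 was higher and 17 were lower. DDIT3, the stress factor CHOP, had log2 signals of 7.44, 7.39 and 7.50 in parental basal cells and 7.32, 7.49 and 7.59 in resistant cells under drug, with a difference of 0.02 ± 0.11 (SE), although it rose by 0.44 in the parental line under 1 µM. PSAT1, of serine synthesis, differed by -0.67 and CEBPB by -0.68. Hypoxia-inducible genes were higher in 6 of 14 and lower in 1, or 4 and 4 under scaling to the median of all probes: CA12, a carbonic anhydrase, was 1.68 higher and NDRG1, a stress-responsive gene, 1.36 higher, whereas ADM, adrenomedullin, differed by -1.85 with a line step of -1.47. NRF2 targets were higher in 5 of 13 (38.5%, against 16.7% of all genes) and lower in 5 (38.5%, against 18.7%). They ran from PGD, of the pentose phosphate pathway, at 0.63 to AKR1B10, an aldo-keto reductase, at -1.27. PGD was at 0.14 without a call under scaling to the median of all probes. The even split of the list became 0 higher and 8 lower under that scaling (median -0.45). It became 2 higher and 6 lower under scaling to the median of the tested genes.

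Of 6 metallothioneins 2 were lower (33.3%, against 18.7% of all genes) and 1 was higher (16.7%, the same share as over all genes). MT2A was at -1.47, MT1X at -1.14 and MT1H at 0.45. Since these genes are near-identical their signals may not be separate. The MT1H call ended under scaling to the median of all probes (0.36, adjusted p 0.0561), without parental basal replicate 2 or 3 (0.32 and 0.45) and without resistant 1 µM replicate 2 or 3 (0.41 and 0.44). Basal and mesenchymal markers were higher in 2 of 8 (25%, against 16.7% of all genes) and lower in 0. The higher genes were ACTA2, smooth muscle actin, by 1.66 and CDH2, N-cadherin, by 0.29 near background. VIM, ZEB1 and FN1 did not pass the filter. The CDH2 call ended under scaling to the median of all probes (0.25), without the filter, with only the arrays compared, with the replicate number as a block (adjusted p 0.0526) and without any 1 array of either group other than resistant 1 µM replicate 1 (0.18 to 0.33). Among the lists for other cell types, CSF1R, a macrophage receptor that breast cancer cells can also express, differed by -1.18, VWF by 1.04, CDH5 by -0.66, ENG by 0.52, LYZ by 0.39 and TIE1 by 0.38. The calls of the last 3 were not stable. ENG lost its call under scaling to the median of all probes (0.20), without parental basal replicate 1 (0.41) and without resistant 1 µM replicate 1 or 3 (0.44 and 0.49). LYZ lost it under the same scaling (0.26), with the mean of its probes (0.15, the other probe at -0.097), without parental basal replicate 1 (0.34) and without resistant 1 µM replicate 2 (0.35). TIE1 lost it without parental basal replicate 2 (0.30) and without resistant 1 µM replicate 2 or 3 (0.37 and 0.36). The 3 measured fibroblast markers were at the parental level. The part of these genes in the differences above was not tested.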

How the data were processed

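The authors' deposited non-normalized table gives, per the file headers, 1 linear intensity per probe and array for 18 arrays. BeadStudio made the export, per the submitters' processing notes, in a version not given in the sources used here. A normalized table deposited by the authors, also of intensity, served as an alternative. Each lists 48803 probes, where the labels state 48697, and 0 columns belong to other samples.

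Intensities were background-corrected with normexp (offset 50), quantile-normalized and converted to log2 (limma 3.58.1, R 4.3.3). An array's background was taken as the mode of its log2 signals with the spread of the values under the mode, and the limit for a signal above it was set so that a fraction of 0.05 of that background would pass. Probes over the limit on 3 or more arrays were retained (22706). GEO's platform annotation, updated by gene identifier through a RefSeq table of GRCh38.p14, gave 28098 probes 1 symbol, 13 more than 1, and 20692 no symbol. That annotation is for another version of the array than the one the labels state. The brightest retained probe stood for each of 3273 genes with several, leaving 12547 genes. Quantile normalization gives all arrays 1 distribution, so a change in total RNA per cell would not show.

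All 18 arrays entered 1 limma model with a mean for each group and an intensity trend. Comparisons were two-sided, and p-values were adjusted within each over all genes by Benjamini-Hochberg (threshold 0.05). A gene not well above background on any array of a group has only a bound there, given as at least N-fold against the lowest signal above background. Genes to name were the 12 largest rises and falls whose arrays do not overlap, the leading 6 of each class of steps and of the crossed comparison in each direction, up to 4 called members per list, and a panel of receptors and regulators. Members and lists were chosen with earlier results of these data known. Alternatives covered background correction, scaling, filter, probe rule, arrays modelled, the replicate number as a block, intensity trend, bounds and each replicate left out. The model was tested on simulated data with independent errors and no difference in brightness between the groups. That test does not cover the choice of scaling. The number of arrays limits the precision.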

Additional observations from a re-analysis of the deposited data

Results flagged for a closer look

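For 7 named genes the interaction term between line and 1 µM lapatinib passed the test in the limma model (Benjamini-Hochberg adjusted p under 0.05), as it did for 89 genes in all (0.709%). ANKRD37, a hypoxia-inducible gene, responded more in the resistant line, by 0.92 on the log2 scale (adjusted p 0.0128). It rose by 0.87 there, and its change of -0.046 in the parental line did not pass the test. SRPK2 also responded more in the resistant line, by 0.88 (adjusted p 0.0281), at its brightest probe, while against untreated parental cells its 2 other probes gave 0.58 and -0.04. FBXO32 rose less in the resistant line, with a difference of -0.82 (adjusted p 0.00116), and SLC2A10 did as well, with -0.79 (adjusted p 0.0388). PLAC1 fell in the resistant line, where its response differed by -0.72 from that of the parental line (adjusted p 0.0292). For CXCL8 the difference was 0.73 (adjusted p 0.0342), but it was above background on 3 of 3 parental basal arrays, 1 of 3 resistant basal arrays and 0 of 3 arrays of either line under 1 µM, so the resistant line started near background and the size of the difference is not a measure of unequal response. PNCK fell less in the resistant line, with a difference of 0.67 (adjusted p 0.044).

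Probes without a single gene symbol, which enter none of the comparisons above, also differed between resistant cells under drug and untreated parental cells. Of 5934 such probes above background 767 were called (12.9%), 392 higher and 375 lower, against 31.1% of 16772 probes with 1 symbol.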

How the results depend on the processing

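The count of genes that differed ranged from 3776 to 3906 with each array left out in turn, that of genes at the parental level from 5951 to 6244, that of the crossed comparison from 3522 to 3760, that of genes moved alike by both steps from 262 to 347 and that of opposed steps from 134 to 157. Each range lay below the count with all arrays. Scaling to the median of all probes gave 877 genes moved alike by both steps, 59 up and 818 down. Without a filter 12824 of 18852 genes were at the parental level, against 6838 of 12547 with it. The added genes had failed the filter on low signals. With a bound of 1 the count was 11472. Opposed steps numbered 332 with only the arrays of the groups compared. The 2 strong parental responders at the parental level became 7 under scaling to the median of all probes, 6 under scaling to the median of the tested genes, 4 with the mean of a gene's probes, 1 without the intensity trend, 45 with a bound of 1 and 121 with a parental change of 1.5-fold, and 1 to 4 with arrays left out. The cause of these changes was not tested.

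Of 118 called named genes 100 kept their call in every alternative. Reversed signs occurred under scaling to the median of all probes alone: CAPS -0.32, EGFR -0.14, FOXO3 -0.18, HYOU1 -0.082, MTHFD2 -0.019, OGDH -0.046 and OPN3 -0.40. Between parental basal cells and resistant cells under 1 µM, deviations of same-numbered arrays correlated at -0.04, -0.01 and -0.02, which shows no pairing there. The other groups were not examined in this way, and the values do not tell whether same-numbered arrays shared a culture or a day. With the replicate number as a block 4401 genes differed, 6784 were at the parental level, the crossed comparison called 4087, 388 were moved alike by both steps, 197 had opposed steps and 2 strong responders were at the parental level. Scanner dates and slides were not used here. Dim probes compress differences, so values near background are less exact.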
